A study of Mus musculus with 18 samples.

Results

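The mir-29 family was followed by small RNA sequencing in Baf3, an interleukin-3-dependent line of mouse pro-B cells. Its members were taken by name from the deposited table, and mmu-mir-29a, mmu-mir-29b and mmu-mir-29c, written below without the species prefix, are 3 of 1006 miRNA entries. The rule by name uses no measured value. All 3 passed the filter on low counts and were among the 273 entries tested.

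The study compared 3 genotypes with 6 libraries each. The control (Rag1_KO) carried a guide against Rag1, a recombination gene chosen as a target outside miRNA biogenesis. The SAFB group (Safb1 KO, Safb2 KO) carried a guide against Safb1 and Safb2, which encode the scaffold attachment factors SAFB1 and SAFB2, and the ERH group (Erh KO) a guide against Erh, which encodes a small dimeric protein. SAFB2 and ERH are known as cofactors in the nuclear processing of clustered miRNAs. Every population shared reporters for mutated miR-15a and miR-16, Cas9 and selection with puromycin. Edited cells were sorted on derepression of the dsRed reporter for miR-15a, that is, on lost cluster assistance, and regrown. How control cells were sorted was not stated. The populations were polyclonal, with 2 guide populations per genotype and 3 libraries per population, 1 in each of 3 batches. Batches are numbered by the last number of each library's title, and the titles do not say what was shared within one. With 3 libraries from each population, the p-values measure the spread between libraries, and only 2 edited populations stand behind each genotype.

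A miRNA is cut from a hairpin in its primary transcript by the Microprocessor, and Dicer then trims it to its mature length. Bases 2 to 8 of the mature strand, the seed, pair with target mRNAs, so miRNAs with one seed share many targets. In cluster assistance, a hairpin that the Microprocessor handles poorly is cut better when a second hairpin lies on the same transcript, as described for miR-15a beside miR-16. The miR-29 family is known for repressing collagens and other matrix genes, the DNA methyltransferases DNMT3A and DNMT3B and the survival factor MCL1, and in lymphoid cells it has been studied in leukaemia.

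The 3p mature strands, known as the guide strands, are shown because one seed, in capitals, unites them while their remaining bases tell the entries apart. They are from RefSeq (GRCm38.p6), 5′ to 3′.
mmu-miR-29a-3p: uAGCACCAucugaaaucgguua
mmu-miR-29b-3p: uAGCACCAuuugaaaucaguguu
mmu-miR-29c-3p: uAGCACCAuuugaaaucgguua

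The seed AGCACCA occurred in these 3 of 1679 mature mouse miRNA names in RefSeq and in 0 outside the family. With positions counted from 1 at the 5′ end and the first-named strand's base first, miR-29a-3p and miR-29c-3p differed by C10U alone. The strands miR-29b-3p and miR-29c-3p differed by A18G, G21U and U22A and shared their first 17 bases. The strand miR-29b-3p differed from miR-29a-3p by U10C, A18G, G21U and U22A. How reads too short to reach these positions were assigned was not stated, so the split of counts between entries carries that uncertainty.

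The opposite strands are shown because they tell the gene copies of mir-29b apart, which the shared 3p strand cannot. Their seeds, again in capitals, all differed.
mmu-miR-29a-5p: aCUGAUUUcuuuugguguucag
mmu-miR-29b-1-5p: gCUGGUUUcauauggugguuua
mmu-miR-29b-2-5p: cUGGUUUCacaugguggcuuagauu
mmu-miR-29c-5p: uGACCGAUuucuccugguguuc

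In the mouse genome (GRCm38) the family has 4 genes in 2 pairs. Mir29b-2 (chr1:195037040-195037120, plus strand) and Mir29c (chr1:195037547-195037634, plus strand) lay 426 bases apart. Both sat wholly within exon 3 of the long noncoding transcript A330023F24Rik-204 and, on the opposite strand, over the annotated UTR in exon 11 of the protein-coding gene Cd46. Mir29b-1 (chr6:31063023-31063093, minus strand) and Mir29a (chr6:31062660-31062747, minus strand) lay 275 bases apart. Mir29b-1 overlapped exon 1 of the long noncoding RNA Gm27019 (chr6:31063092-31063495, minus strand) only at the edge of the hairpin. GENCODE M21 listed no other transcript over Mir29a. No other miRNA gene lay within 10 kb on the same strand of any of the 4.

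The table entries name neither an arm nor a gene copy, so each is read here as the sum of both arms and every copy. Mir29b-1 and Mir29b-2 thus share the entry mir-29b, and the copy beside Mir29c could not be separated from the copy beside Mir29a. The RefSeq hairpins had predicted folding energies of -34.1 kcal/mol for Mir29a over 88 bases, -26.3 for Mir29b-1 over 71, -31.1 for Mir29b-2 over 81 and -34.8 for Mir29c over 88. Predicted base pairs numbered 28, 26, 31 and 31 in the same order.

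Libraries held 2699323 to 4470073 miRNA counts and 396 to 455 detected entries. The blood-cell miRNA mir-142a stood at 109283 to 156599 CPM (counts scaled to library size by trimmed mean of M-values, TMM, and to a common total), and the lymphoid mir-155 at 1223 to 1879. Of 4 blood and lymphoid markers, mir-150, a miRNA of mature lymphocytes, was low, at 1.44 to 25.0 CPM. Its mean was 19.3 CPM for control, 9.29 for ERH and 4.91 for SAFB, with log2 fold changes from control of -1.06 in ERH (edgeR adjusted p 0.0010) and -1.96 in SAFB (edgeR adjusted p 1.2e-06). The mean of mir-142a was 145243 CPM for control, 139106 for SAFB and 123734 for ERH, with log2 fold changes of -0.062 (edgeR adjusted p 0.378) and -0.23 (edgeR adjusted p 0.0016). The mean of mir-155 was 1754, 1609 and 1350.4 CPM in that order, with log2 fold changes of -0.12 (edgeR adjusted p 0.140) and -0.38 (edgeR adjusted p 8.7e-05). Groups thus ran in the order control, SAFB, ERH for mir-142a and mir-155, as for mir-29a, and control, ERH, SAFB for mir-150, as for mir-29b and mir-29c. For mir-29a and mir-29b, not all of these differences had an edgeR adjusted p under 0.05, and their direction in ERH depended on the scaling. The myeloid mir-223 averaged 17414 CPM in SAFB libraries, against 9611 in control and 9214 in ERH. Its log2 fold change from control was 0.86 in SAFB (edgeR adjusted p 4.0e-05) and -0.061 in ERH (edgeR adjusted p 0.769). Markers of other cells were low: mir-122 (liver) reached at most 34.2 CPM, mir-200c (epithelium) 27.4 and mir-1a (muscle) 5.80, and mir-124, mir-133a, mir-144, mir-145a and mir-451a had no more than 6 counts in any library. Mean mir-122 was 17.1 CPM in ERH libraries, 11.6 in SAFB and 6.78 in control. Its log2 fold change from control was 1.33 in ERH (edgeR adjusted p 0.0019) and 0.77 in SAFB (edgeR adjusted p 0.062). Mean mir-200c was 22.3 CPM in SAFB libraries, 15.6 in control and 15.2 in ERH. Its log2 fold change from control was 0.51 in SAFB (edgeR adjusted p 0.014) and -0.040 in ERH (edgeR adjusted p 0.866). The part of these markers in the results on mir-29 was not tested.

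The member that changed most was mmu-mir-29c, the neighbour of Mir29b-2. Control libraries held 3561 CPM at the lowest, 3919 at the median and 4230 at the highest, with a mean of 3903 ± 264 (SD, n = 6). SAFB libraries held 466, 543 and 659.6 CPM, with a mean of 551 ± 77.5 (SD, n = 6). ERH libraries held 1369, 1802 and 1839 CPM, with a mean of 1687 ± 209.6 (SD, n = 6).

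The libraries fell into 3 separate ranges for mir-29c, with SAFB lowest, ERH between and control highest. All 6 SAFB libraries and all 6 ERH libraries lay below all 6 controls. Such a gap below every control was found in 17.2% of tested miRNAs for SAFB, and in 17.9% for ERH. All 6 ERH libraries also lay above all 6 SAFB libraries, which held for 14.3% of tested miRNAs. The mean level was 7.09-fold lower in SAFB and 2.31-fold lower in ERH than in control. In these bulk samples, fewer cells with the change and less miRNA per cell cannot be told apart.

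**Figure D1:**
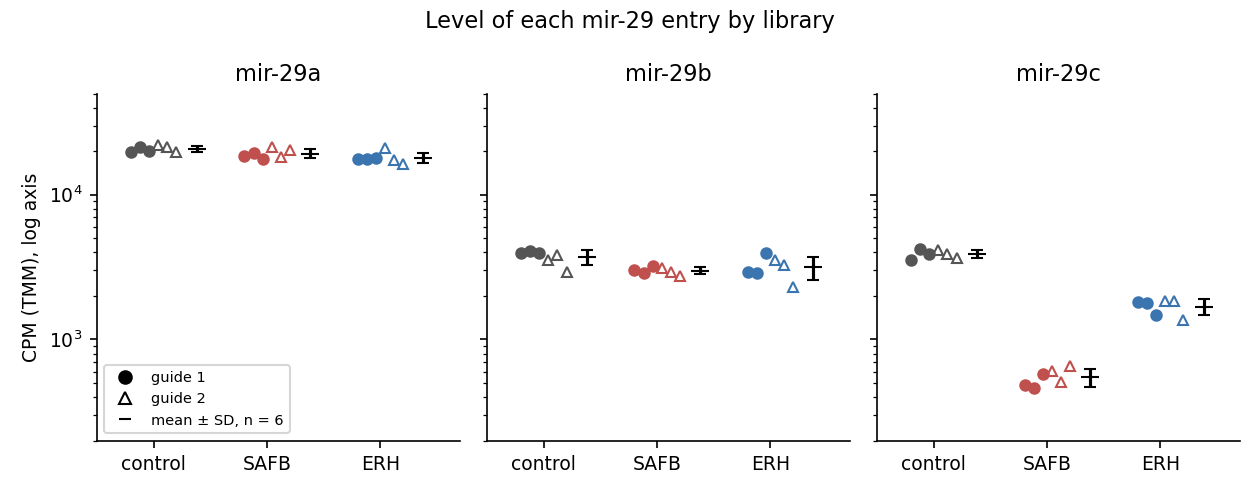
Level of each mir-29 entry in each library, in TMM-scaled CPM on a log axis, for control, SAFB and ERH. Filled circles are libraries of guide 1, open triangles of guide 2, and bars are the mean ± SD of 6 libraries; the mir-29c groups are separate, with means of 3903, 551 and 1687 CPM, while the mir-29a and mir-29b groups overlap.

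Raw counts behind mir-29c were 10347 to 16048 for control, 1714 to 2760 for SAFB and 4423 to 7672 for ERH. The SD of its log2 CPM was 0.098 for control, 0.20 for SAFB and 0.19 for ERH libraries, against 0.013, 0.032 and 0.018 from counting error alone.

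In SAFB libraries mir-29c fell by 2.83 on the log2 scale (SE 0.098; edgeR quasi-likelihood adjusted p 3.3e-17). In ERH libraries it fell by 1.21 (SE 0.093; edgeR adjusted p 7.1e-11). ERH against SAFB gave a log2 fold change of 1.62 (SE 0.094; edgeR adjusted p 6.6e-12). Of the 273 tested miRNAs it ranked 7 from the lowest fold change in SAFB, 16 from the lowest in ERH, and 12 from the highest in ERH against SAFB.

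The entry mir-29c thus fell in both genotypes, by less in ERH than in SAFB. Among the 4 comparisons of a single edited population with a single control population, its log2 fold change lay between -2.94 and -2.72 for SAFB and between -1.22 and -1.20 for ERH. All 4 were called in each genotype, but they reuse 2 edited and 2 control populations and are not independent. For mir-29b 2 of 4 such comparisons were called in SAFB and 1 of 4 in ERH, and for mir-29a 0 and 1. The share of all tested miRNAs called in these comparisons was not counted. The call of mir-29c also held in 31 of 31 alternatives in each comparison, which included other scalings and leaving out each library or population.

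The entry mmu-mir-29b, read as the sum of both copies, moved little beside that. Control libraries held 2907, 3898 and 4101 CPM at the lowest, median and highest, with a mean of 3725 ± 439 (SD, n = 6). SAFB libraries held 2753, 2973 and 3231 CPM, with a mean of 2988 ± 169.7 (SD, n = 6). ERH libraries held 2307, 3116 and 3935 CPM, with a mean of 3146 ± 567 (SD, n = 6).

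These groups overlapped: 2 of 6 SAFB and 2 of 6 ERH libraries lay below every control. The control of guide 2 in batch 3 was the low control, and the ERH libraries of batch 3 held both the highest value of their group, from guide 1, and the lowest, from guide 2. In SAFB the log2 fold change of mir-29b was -0.32 (SE 0.10; edgeR adjusted p 0.0096). In ERH it was -0.24 (SE 0.10; edgeR adjusted p 0.044), and ERH against SAFB gave 0.074 (SE 0.10; edgeR adjusted p 0.605).

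Both calls of mir-29b were lost in part of the fits that left out 1 library. The SAFB call was lost without the control of guide 1 in batch 1, 2 or 3, or without the SAFB library of guide 1 or of guide 2 in batch 2, with log2 fold changes between -0.25 and -0.22. The ERH call was lost without any 1 of 16 of the 18 libraries; the exceptions were the control of guide 2 in batch 3 and the ERH library of guide 1 in batch 3. Those 16 included all 6 SAFB libraries, which hold no value of this comparison. Each such fit was scaled and filtered anew, and over the 18 fits the median ERH fold change of all tested miRNAs lay between -0.026 and 0.016 (log2), against -0.061 with every library. Without the ERH library of guide 2 in batch 3 the ERH value of mir-29b was -0.11. With batch as a replicate block it was -0.24 (edgeR adjusted p 0.0522), and scaling by total counts or by spike-ins turned it to 0.056 or 0.069. Without the control population of guide 1, mir-29b was -0.12 in SAFB and -0.077 in ERH. Without the SAFB population of guide 1 or of guide 2 it was -0.17 in SAFB, and none of these values was called.

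The most abundant member was mmu-mir-29a, which ranked 11 by level in control and SAFB and 10 in ERH. Control libraries held 19585, 20601 and 22066 CPM at the lowest, median and highest, with a mean of 20676 ± 1031 (SD, n = 6). SAFB libraries held 17633, 18968 and 21323 CPM, with a mean of 19229 ± 1364 (SD, n = 6). ERH libraries held 16317, 17647 and 20857 CPM, with a mean of 17993 ± 1519.8 (SD, n = 6).

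In the order of control, SAFB and ERH, neighbouring groups of mir-29a overlapped, although 4 of 6 SAFB and 5 of 6 ERH libraries lay below every control. In SAFB the log2 fold change was -0.10 (SE 0.060; edgeR adjusted p 0.140). Without 1 library it ranged from -0.083 to -0.0069, and without the SAFB population of guide 1 it was 0.12, uncalled in each. In ERH it was -0.20 (SE 0.060; edgeR adjusted p 0.0065), and ERH against SAFB gave -0.096 (SE 0.060; edgeR adjusted p 0.229). The ERH call was lost without the control of guide 1 in batch 2 or of guide 2 in any batch, or without the ERH library of guide 1 in batch 1 or 3 or of guide 2 in batch 2 or 3. Without the last of these the value was -0.12, with the same shift of the median of all miRNAs. Scaling by total counts or spike-ins gave 0.10 or 0.090 in ERH, so its direction there rested on the scaling.

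By the threshold of an adjusted p under 0.05, 2 of 3 members were lower in SAFB, where 25.3% of tested miRNAs were called lower and 56% in either direction. Over 31 alternatives the SAFB count was 2 in 23 and 1 in 8. In ERH 3 of 3 were lower, against 27.5% called lower and 53.8% in either direction. Of 31 alternatives, the count in ERH was 3 in 1, the fit without a filter on low counts, 2 in 15 and 1 in 15. With RLE size factors, DESeq2, total counts or spike-ins only mir-29c, 1 of 3, was called lower in ERH. The number of all 273 tested miRNAs called lower in ERH was 65 with RLE size factors, 33 with total counts and 19 with spike-ins, against 75 with TMM. Between ERH and SAFB 1 of 3 was higher, against 23.8% called higher and 39.6% in either direction. With more than 1 in 4 miRNAs called lower in each knockout under TMM, the calls of mir-29a and mir-29b alone set neither apart from the rest. Over all tested miRNAs the median fold change (log2) was 0.0083 for SAFB against control, beside -0.32 over the 3 members. For ERH it was -0.061, beside -0.24 over the 3 members.

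No member was called between the guides of one genotype. The log2 fold change of guide 2 against guide 1 lay between -0.22, for mir-29b in control, and 0.22, for mir-29c in SAFB. The edgeR adjusted p was at least 0.872 in all 9 comparisons. Over all tested miRNAs 0% were called in control, 0% in SAFB and 0.366% in ERH. An unadjusted edgeR p under 0.05 was found for 7, 10 and 18 miRNAs in that order.

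**Figure D2:**
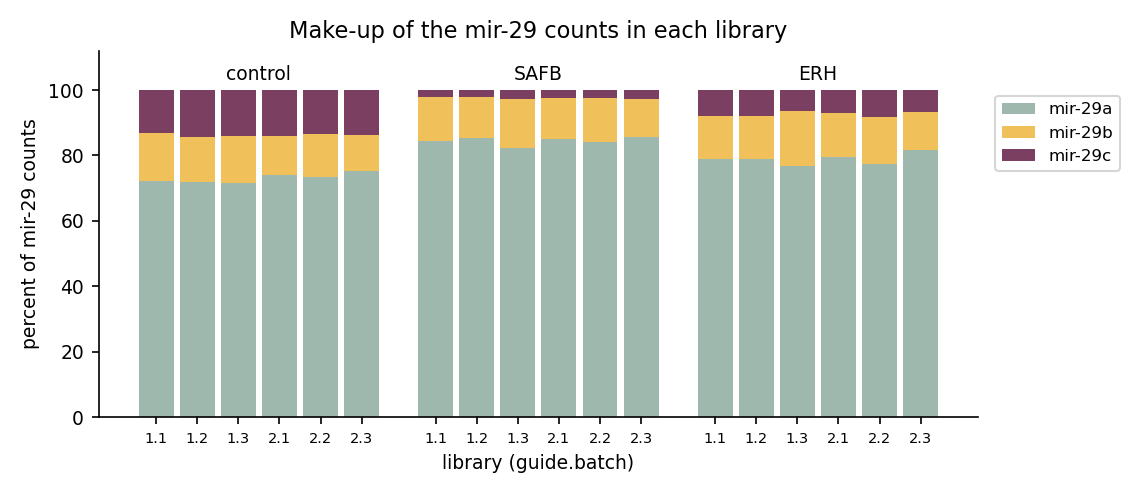
Share of the family's counts taken by mir-29a, mir-29b and mir-29c in each of 18 libraries, in percent. The mir-29c share averages 13.8% for control, 2.42% for SAFB and 7.40% for ERH, and mir-29a takes most of each bar.

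The makeup of the family shifted with mir-29c. Over 6 libraries a group (± SD), it supplied 13.8 ± 0.429% of the family's counts in control, 2.42 ± 0.286% with SAFB disrupted and 7.40 ± 0.790% with ERH disrupted. The share of mir-29a was 73.1 ± 1.38%, 84.4 ± 1.21% and 78.9 ± 1.69% in the same order, and that of mir-29b 13.2 ± 1.38%, 13.2 ± 1.18% and 13.7 ± 1.79%. These are shares of counts, and how well each sequence entered the libraries was not measured.

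Ratios within a library compare the members without any scaling between libraries. The log2 ratio of mir-29b to mir-29c, one of whose gene copies lies beside Mir29c, averaged -0.074 ± 0.17 (SD, n = 6) in control. It averaged 2.45 ± 0.22 (SD, n = 6) in SAFB and 0.89 ± 0.28 (SD, n = 6) in ERH. On the linear scale mir-29b had 0.956 times the counts of mir-29c in control, 5.51 times in SAFB and 1.88 times in ERH. The groups did not overlap in any of the 3 comparisons. The level of mir-29c by itself also separated them, and the share of other miRNA pairs whose ratios do so was not computed.

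The ratio of mir-29b to mir-29c rose by 2.52 in SAFB and by 0.96 in ERH on the log2 scale, and the difference of ERH from SAFB was -1.56. Each had an exact two-sided permutation p of 0.0022, the smallest that 6 against 6 libraries allow, and 0.0032 adjusted over the 9 ratio tests. Within batches 1, 2 and 3 the differences were 2.53, 2.62 and 2.42 in SAFB and 0.85, 0.80 and 1.24 in ERH. Each batch alone kept the direction. With 2 libraries against 2, the exact permutation test allows no p below 0.333, and no other test was run on a single batch. Permutation within all 3 batches together gave an adjusted exact permutation p of 0.0139 in both knockouts.

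The ratio of mir-29c to mir-29a, members encoded on different chromosomes, fell in the same way. Both ratios hold the same mir-29c counts, so their tests and their lack of overlap are not independent results. Its log2 values averaged -2.41 ± 0.056 in control, -5.14 ± 0.18 under SAFB and -3.42 ± 0.16 under ERH disruption (± SD over 6 libraries each). The differences were -2.73 in SAFB, -1.01 in ERH and 1.71 in ERH against SAFB, each with an exact two-sided permutation p of 0.0022 (0.0032 adjusted over the 9 ratio tests) and no overlap between groups. Within batches 1, 2 and 3 they were -2.76, -2.88 and -2.54 in SAFB and -0.96, -0.88 and -1.20 in ERH.

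The ratio of mir-29b to mir-29a, the members of the chromosome 6 pair, overlapped between all groups. Its log2 values averaged -2.48 ± 0.18 in control, -2.68 ± 0.15 in SAFB libraries and -2.53 ± 0.21 in those of ERH (± SD over 6 libraries each). The differences were -0.20 in SAFB (exact two-sided permutation p 0.0714, adjusted 0.0918), -0.052 in ERH (exact permutation p 0.654, adjusted 0.654) and 0.15 in ERH against SAFB (exact permutation p 0.177, adjusted 0.200). The SAFB difference passed the threshold without the control of guide 2 in batch 3, at -0.26, and without the SAFB library of guide 1 in batch 3, at -0.25. Without the whole control population of guide 2 it was -0.35 and called, and without that of guide 1 it was -0.062 and uncalled.

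**Figure D3:**
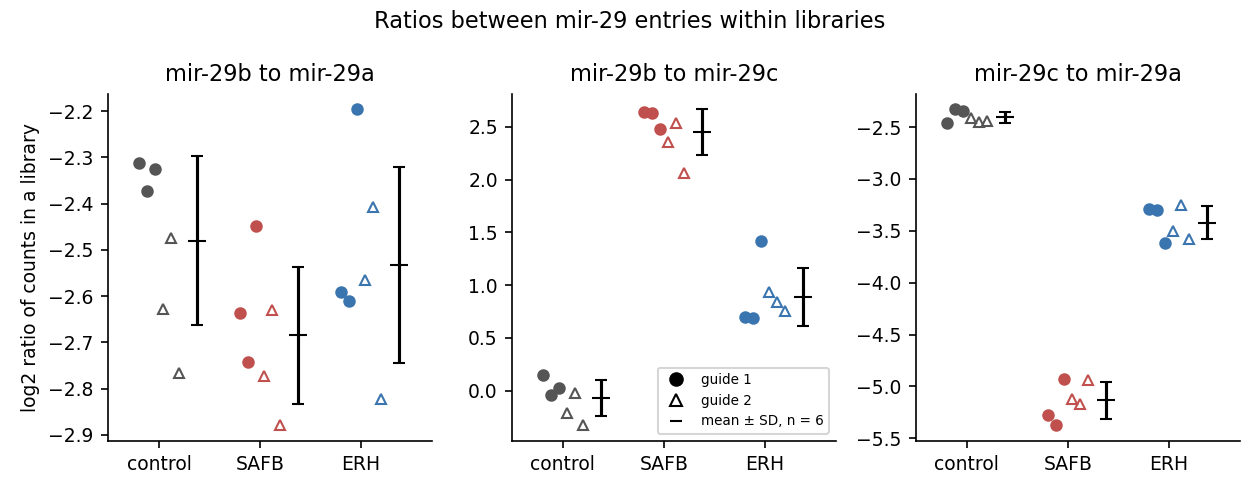
Log2 ratios of counts between the mir-29 entries within each library, on separate vertical scales, for control, SAFB and ERH. Filled circles are libraries of guide 1, open triangles of guide 2 and bars the mean ± SD of 6 libraries; both ratios with mir-29c form separate groups, and mir-29b to mir-29a overlaps, with differences of -0.20 and -0.052 from control.

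The summed counts of the family may include reads of the 5p strands, which lack the shared seed. They came to 2.61 ± 0.111% of all miRNA counts of control libraries, 2.16 ± 0.0935% of SAFB and 2.60 ± 0.138% of ERH libraries (± SD over 6 each). On the TMM scale the summed level was 14.79 log2 CPM in control, 14.47 in SAFB and 14.47 in ERH, a difference from control of -0.31 in both. No test is given for this sum. All 6 SAFB and all 6 ERH libraries lay below all 6 controls on that scale, as 17.2% and 17.9% of tested miRNAs did; the sum includes mir-29c, which did so by itself.

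For ERH that decrease depended on the scaling. By total counts the ERH difference was -0.0088, and by spike-ins -0.037, while the SAFB difference was -0.27 and -0.55. Under total counts the median log2 fold change of all tested miRNAs moved to 0.24 in ERH and to 0.043 in SAFB. Under spike-ins it moved to 0.23 in ERH and to -0.23 in SAFB. Relative to those medians, mir-29c was the member furthest below in both genotypes.

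**Figure D4:**
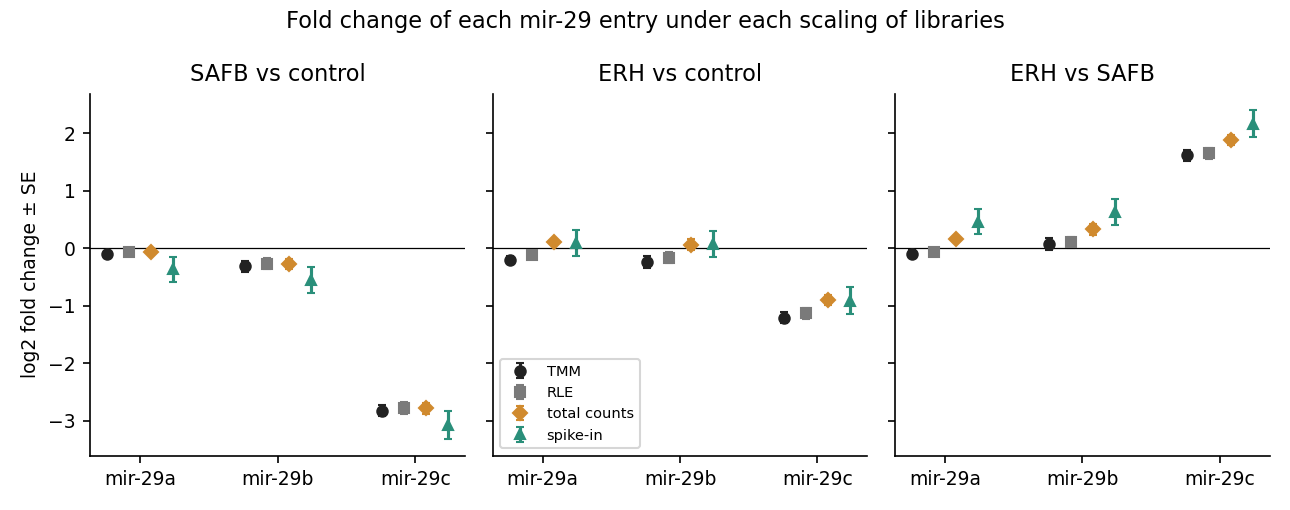
Log2 fold change of each mir-29 entry in SAFB and ERH against control and in ERH against SAFB, with its SE, under TMM, RLE (DESeq2-type size factors), total-count and spike-in scaling of the libraries. Against control the mir-29c values lie below the others under all 4 scalings, and mir-29a and mir-29b in ERH lie on either side of 0, from -0.20 to 0.10 and from -0.24 to 0.069.

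On the TMM scale mir-29c made up 60.6% of the fall in the summed mean CPM in SAFB and 40.4% in ERH. The share of mir-29a was 26.1% in SAFB and 49.0% in ERH, and that of mir-29b 13.3% and 10.6%. The ERH shares did not hold on the other scale computed. As percent of all miRNA counts, mir-29a was higher in ERH than in control by 0.140 percentage points and mir-29b by 0.014, while mir-29c fell by 0.168, for a net change of -0.015. In SAFB mir-29c made up 68.2% of the fall on this second scale, mir-29a 18.5% and mir-29b 13.3%.

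The profiles of the 18 libraries were compared with those of 113 other miRNAs of at least 100 CPM, as the root mean square difference of centred log2 CPM. Nearest to mir-29a were let-7a (0.068), mir-30e (0.076) and let-7i (0.091), and nearest to mir-29b were mir-27a (0.093), let-7g (0.10) and mir-30c (0.11). The entry mir-29b came 32 in order from mir-29a. For both, mir-29c came 100 in order.

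Nearest to mir-29c were mir-192 (0.31), mir-181b (0.31) and mir-15a (0.59). Against control, mir-192 had log2 fold changes of -3.22 in SAFB and -1.41 in ERH, mir-181b of -2.56 and -0.63, and mir-15a, whose mutated form the sorting reporter monitored, of -3.61 and -2.59. The distances are wider than those of mir-29a and mir-29b, and these 18 libraries share genotypes, so the likeness is a description.

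Pairs of miRNA genes close together on one strand gave a frame for the mir-29 pairs. The annotation held 44 pairs within 10 kb whose entries were both tested and reached 100 CPM, made of 49 miRNAs. Of the 46 besides the members, 25 were called lower and 7 higher in SAFB under TMM, and 31 lower and 7 higher in ERH. Of all tested miRNAs, 25.3% were lower and 30.8% higher in SAFB, and 27.5% lower and 26.4% higher in ERH. With spike-ins only 19 of all 273 were called lower in ERH, so the ERH count of the 46 rested on the scaling. As a group these 46 had a median of -0.24 (log2) for SAFB, and -0.30 for ERH, beside 0.0083 and -0.061 over all tested miRNAs.

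The fold changes of mir-29b and mir-29c differed by 2.51 in SAFB, 7 in order of size among the 44 pairs, and by 0.97 in ERH, 14 in order. The fold changes of mir-29a and mir-29b differed by 0.21 in SAFB, 27 in order, and by 0.043 in ERH, 40 in order. The median difference of all pairs was 0.36 in SAFB and 0.20 in ERH. Differences over 1 were found in 10 pairs in SAFB and 13 in ERH.

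The 6 pairs with larger differences in SAFB included mir-191 with mir-425 (4.91), mir-15a with mir-16 (3.83) and mir-192 with mir-194 (3.45). Entries such as mir-16 are read as including copies from other loci, as mir-29b is. In ERH against SAFB the difference of the mir-29b and mir-29c pair was 1.54, 4 in order, and that of mir-29a and mir-29b 0.17, 29 in order.

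**Figure D5:**
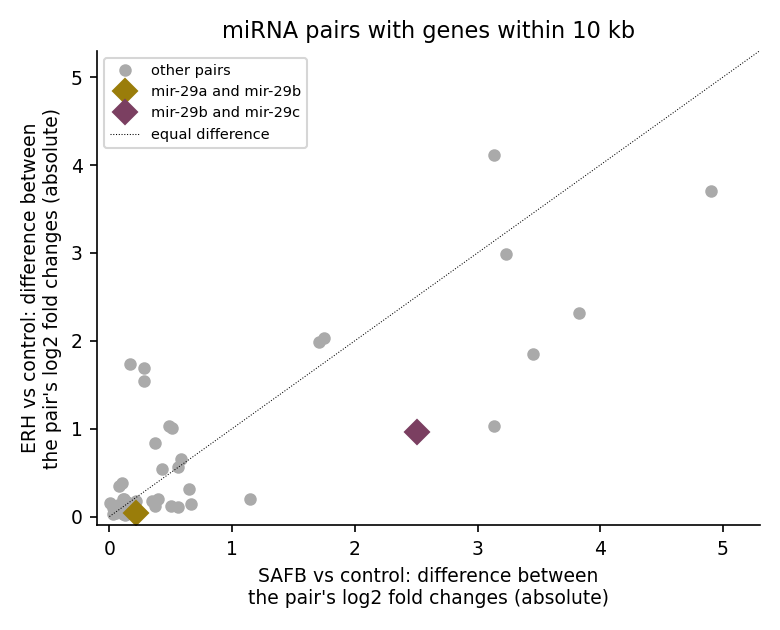
Absolute difference between the log2 fold changes of the miRNAs of each of 44 same-strand pairs, in SAFB and ERH against control, with both mir-29 pairs marked. The pair of mir-29b and mir-29c stands at 2.51 and 0.97, above the medians of 0.36 and 0.20, and the pair of mir-29a and mir-29b at 0.21 and 0.043, below them.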

How the data were processed

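The authors deposited raw, whole-number counts of reads without normalization for 1006 miRNA entries and 4 spike-ins in 18 libraries. Per the labels' protocols, total RNA was mixed with the spike-ins and libraries were made with a QIAseq miRNA kit. SAMtools is named per the submitters' processing notes. The aligner, the counter, the build, the annotation, how reads matching several entries were assigned and the collapsing of molecular identifiers are not given in the sources used here, so depth speaks to counting error only. Spike-ins took 0.165% to 0.366% of counts and entered neither library sizes nor tests.

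Tests on counts used edgeR 4.0.16 with its quasi-likelihood F test (limma 3.58.1, R 4.3.3). Entries were kept by filterByExpr by population with a minimum count of 10, libraries scaled by TMM, and 1 mean per genotype fitted over all 18 libraries. P-values were adjusted by Benjamini-Hochberg over 273 entries, with calls under 0.05, and an SE is the size of the log2 fold change over the square root of F. The fit was tested on simulated data. Ratios of raw counts were compared by exact two-sided permutation tests in scipy 1.17.1 (Python 3.11.15), adjusted over 9 tests. The rule for members uses names alone, but the family and the lists were chosen for description with earlier results of these data known. This limits the member and ratio tests, and a planned test of the level summed over members is not reported. Alternatives were RLE, total-count and spike-in scaling, no filter on low counts, DESeq2 1.42.0, batch in the fit, populations summed, and libraries or populations left out.

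Named miRNAs are the members, the 3 nearest to each by profile (log2 CPM with a prior count of 2, mean of at least 100 CPM) and any miRNA genes up to 10 kb away on their strand. Markers of blood and of other cells came from a list of known cell-type miRNAs. Pairs beyond these were named after their values were seen. GENCODE M21 (GRCm38) matched 931 of 1006 entries by name, and the RefSeq table all 4 mir-29 genes. Hairpins were folded with RNAfold 2.7.2. Libraries sharing a batch number deviated together with a mean r of 0.028 over 45 pairs from different populations. Over 90 pairs of different batches it was -0.014, so the numbers were not taken to pair libraries. Sampling noise was exceeded between libraries of each population (chi-square per degree of freedom 27.5 to 157.1). That covers counting error only, so whether libraries of one population came from separate RNA was not tested.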

Additional observations from a re-analysis of the deposited data

Results flagged for a closer look

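In the ERH group, 1 library stood apart in the log2 ratio of mir-29b to mir-29c. The library of guide 1 in batch 3 had 1.42, against 0.69 to 0.94 in the other 5. Its gap to the nearest of them was 0.654 of the whole range of the group. Of 21 groups of 6 libraries looked at in this way, 1 held such a library, and chance gives about 1 in 20. Without it, the difference between ERH and control was 0.86, against 0.96 with it, and the groups stayed apart.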

How the results depend on the processing

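The log2 fold changes of mir-29c were called in every alternative run, from -3.07 to -2.54 in SAFB, from -1.24 to -0.91 in ERH and from 1.44 to 2.16 in ERH against SAFB. The ratios of mir-29b or mir-29a with mir-29c were called in 26 of 26 alternatives with a test, including the replicate block as permutation within batches (exact permutation p 0.0139 adjusted). Of the paired fits with batch as a replicate block, 1 call changed, that of mir-29b in ERH, at -0.24 (edgeR adjusted p 0.0522). Further calls of mir-29a and mir-29b changed as follows, and the cause was not tested.

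In ERH the value of mir-29a was -0.13 with RLE size factors and with DESeq2, -0.18 with populations summed, without control guide 1 (-0.18) or ERH guide 1 or 2 (-0.18 each), -0.15 without control guide 2, -0.099 and -0.11 without SAFB guide 1 and 2, all uncalled, and 0.10 with total counts and 0.090 with spike-ins. In ERH mir-29b was -0.17 with RLE and DESeq2, -0.23 with populations summed, -0.077 without control guide 1, -0.14 and -0.15 without SAFB guide 1 and 2, -0.16 without ERH guide 2, and 0.056 and 0.069 with total counts and spike-ins. In SAFB mir-29b was -0.12 without control guide 1 and -0.17 without SAFB guide 1 or 2, and mir-29a was 0.12 without SAFB guide 1. In ERH against SAFB, mir-29a was 0.17 with total counts (called), 0.46 with spike-ins and -0.22 without SAFB guide 1 (called), and mir-29b was 0.33 and 0.62 with total counts and spike-ins (called).

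With 1 library left out, mir-29a ranged from -0.18 to -0.12 in ERH, from -0.083 to -0.0069 in SAFB and from -0.15 to -0.075 in ERH against SAFB, where it was called without the ERH library of guide 2 in batch 1. Likewise mir-29b ranged from -0.27 to -0.11 in ERH, from -0.31 to -0.22 in SAFB and from -0.013 to 0.15 in ERH against SAFB. The log2 ratio of mir-29b to mir-29a ranged from -0.12 to 0.0062 in ERH and from -0.26 to -0.17 in SAFB. That ratio was 0.091 without control guide 1 and 0.014 without ERH guide 2 in ERH, and in SAFB -0.35 without control guide 2 (called) and -0.062 without control guide 1, against -0.20 with all libraries.

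Single batches moved some differences by more than 1 SD: in batch 2, the ratio of mir-29b to mir-29c was -1.82 in ERH against SAFB, that of mir-29c to mir-29a 2.00, -0.88 and -2.88 in ERH against SAFB, ERH and SAFB, and the summed level -0.41 in SAFB. In batch 3 the first ratio was -1.19 in ERH against SAFB and 1.24 in ERH, and the second 1.34, -1.20 and -2.54. The summed level was -0.0088 and -0.037 in ERH, and 0.27 and 0.51 in ERH against SAFB, with total counts and spike-ins, and -0.55 in SAFB with spike-ins.

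Over all tested miRNAs, 147 were called in ERH, 72 higher and 75 lower, against 91 with spike-ins (72 and 19) and 141 with total counts (108 and 33). The split of 84 higher and 69 lower in SAFB was 44 and 58 with spike-ins, and that of 65 and 43 in ERH against SAFB was 111 and 1 with spike-ins and 115 and 8 with total counts.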
